A study of Homo sapiens with 8 samples.

Results

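The genes described here make, lengthen and desaturate fatty acids. They are ACSS2 and ACLY (acetyl-CoA supply), ACACA and FASN (chain synthesis), ELOVL6 and ELOVL5 (elongation), SCD, FADS1 and FADS2 (desaturation) and LPIN1 (the step toward glycerolipids). They are a named list of 10 gene symbols, chosen with earlier results of these data known. Shares of these genes set beside shares of all genes are therefore descriptions. All 10 were found among the 19447 genes of the count table. RNA was sequenced from K562, a human leukaemia cell line that is grown in suspension and makes embryonic and fetal globins. All 8 libraries come from cells labelled wild type. Controls 1 to 4 had no Lip-1 and carry the label Day 0. The 10 µM dose has 3 libraries, replicates 2 to 4, and the 20 µM dose has 1, replicate 1. Exposure lasted 24 h at both doses and the label is Day 1, so treatment and day cannot be told apart. Lip-1 is commonly short for liproxstatin-1, although no label gives the full name. Liproxstatin-1 blocks lipid peroxidation and ferroptosis, a form of cell death that depends on peroxidised polyunsaturated fatty acids. The labels do not say whether the controls had a vehicle, or whether replicates were separate cultures, so p-values measure the spread between these libraries, which may be technical.

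Cells build fatty acids from acetyl-CoA, which ACLY makes from citrate and ACSS2 from acetate. ACACA carboxylates acetyl-CoA to malonyl-CoA, and FASN joins these units into palmitate. Elongases then lengthen the chain, and desaturases add double bonds: SCD makes monounsaturated oleate and palmitoleate, while FADS2 and FADS1 act in turn on the polyunsaturated chains that enter membrane phospholipids. LPIN1 turns phosphatidate into diacylglycerol, the precursor of triglycerides and of several phospholipids. Transcription of these genes is known to be driven by the SREBP factors. SCAP carries SREBP out of the endoplasmic reticulum when sterols are low, and INSIG1 and INSIG2 hold it back. Oxysterol-sensing LXR raises transcription of SREBF1 and SCD.

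Across the 3 doses the 10 genes summed to 3098, 3668, 3435 and 3082 CPM (the count over the library's total, scaled to 1e+06) in controls 1 to 4, to 7493, 6522 and 5979 CPM at 10 µM, and to 1743 CPM in the 20 µM library. The summed level was thus higher in every 10 µM library, and lower in the 20 µM library, than in any control. By edgeR's quasi-likelihood test with Benjamini-Hochberg adjustment over 14857 genes at 0.05, 6 of the 10 rose at 10 µM against control and 0 fell. These were ACSS2, LPIN1, SCD, FADS1, ELOVL6 and FASN. Over all genes tested, 9.34% were called higher and 9.79% lower in that contrast. The median log2 fold change was 0.80 over the 10 genes and 0.05 over all genes. In CPM, every 10 µM library lay above every control for 8 of the 10, against 21.8% of all genes. CPM carries no TMM scaling factor, and these factors were 1.02 to 1.08 at 10 µM and 0.90 to 0.998 in the controls. Dividing by them lowers the 10 µM values against the controls, so such counts depend on the scaling. The same 6 genes were called without the 20 µM library in the fit. With both doses taken as 1 treated group, only 2 of the 10 (ACSS2 and LPIN1) passed. Over all 13101 genes tested in that fit, 979 were called higher and 876 lower.

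Against 10 µM, the 20 µM library was called lower for 9 of the 10 genes and higher for 0, where 14.6% of all genes were called lower and 11.7% higher. The median log2 fold change was -1.65 over the 10 genes and 0.01 over all genes. The 20 µM library lay below every 10 µM library for all 10, against 36.2% of all genes. The 20 µM dose has 1 library, assumed in the fit to vary like the others, so this contrast has no replicate check. It also shares the 10 µM libraries with the contrast against control, so the 2 contrasts are not independent.

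**Figure D1:**
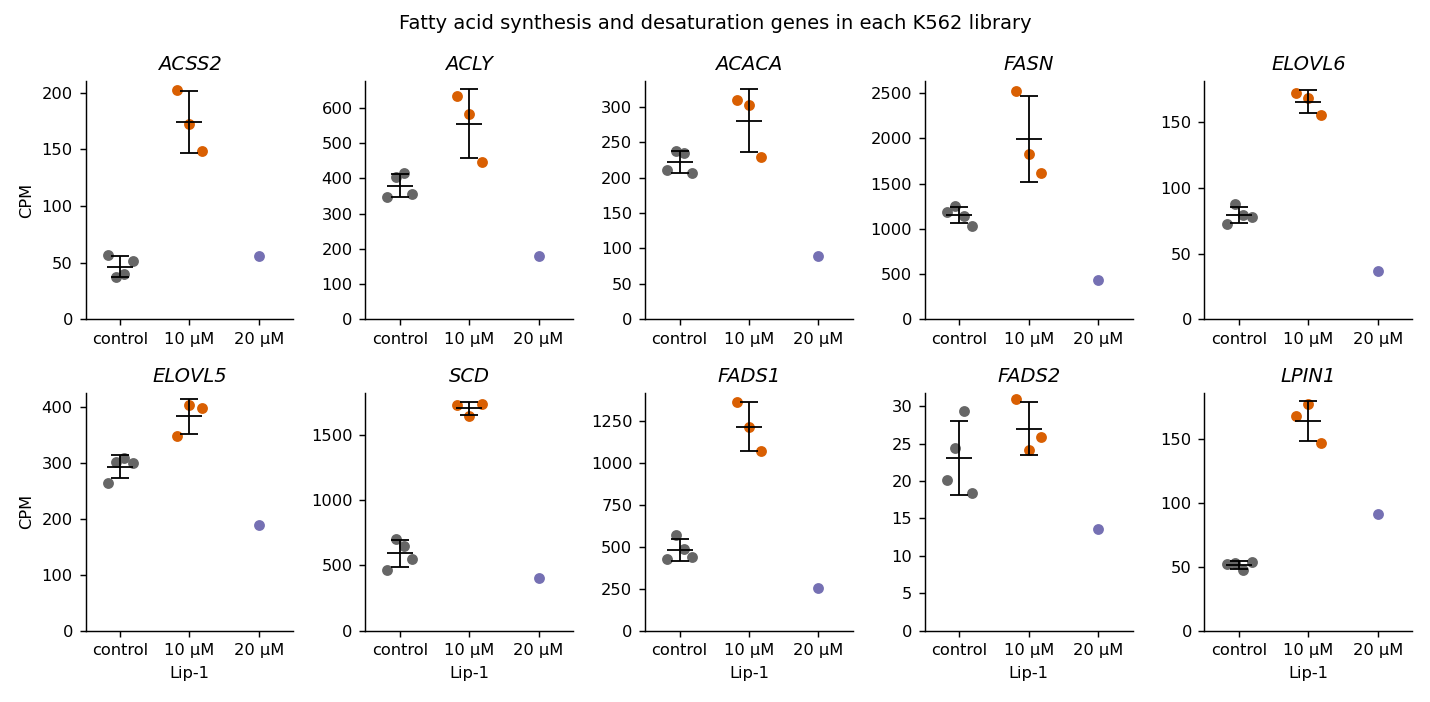
Each point is the CPM of 1 library, by Lip-1 dose, for each of the 10 genes; horizontal lines and bars are the mean and SD of the 4 controls and the 3 libraries at 10 µM, and the 20 µM dose has 1 library. For 8 genes the 10 µM points all lie above the controls, and the 20 µM point lies below the controls for 8 genes, within them for ACSS2 and above them for LPIN1.

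The promoters of the 5 genes that rose at 10 µM with the smallest adjusted p are shown, a choice made on that rise alone. Each is 1 RefSeq window (GRCh38.p14) of 250 bases before to 50 after a transcription start, printed 5′ to 3′ on the gene's strand. They are ACSS2 at chr20:34876362-34876661 (plus strand, 1 of 2 windows), ELOVL6 at chr4:110198566-110198865 (minus), SCD at chr10:100346983-100347282 (plus), FADS1 at chr11:61816954-61817253 (minus) and LPIN1 at chr2:11746382-11746681 (plus, 1 of 3 windows). Capitals mark matches, on either strand, to the NF-Y box CCAAT and the GC box GGGCGG, which reads CCGCCC on the other strand.
ACSS2: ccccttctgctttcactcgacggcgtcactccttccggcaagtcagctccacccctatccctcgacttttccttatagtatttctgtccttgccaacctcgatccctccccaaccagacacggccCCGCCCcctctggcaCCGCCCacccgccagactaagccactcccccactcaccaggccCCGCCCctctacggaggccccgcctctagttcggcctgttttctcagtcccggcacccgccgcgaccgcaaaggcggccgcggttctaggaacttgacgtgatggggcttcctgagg
ELOVL6: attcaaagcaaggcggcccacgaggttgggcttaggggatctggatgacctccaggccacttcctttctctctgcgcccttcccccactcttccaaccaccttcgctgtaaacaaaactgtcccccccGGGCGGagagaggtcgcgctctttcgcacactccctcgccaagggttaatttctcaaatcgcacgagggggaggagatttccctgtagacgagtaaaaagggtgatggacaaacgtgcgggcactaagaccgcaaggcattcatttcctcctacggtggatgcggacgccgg
SCD: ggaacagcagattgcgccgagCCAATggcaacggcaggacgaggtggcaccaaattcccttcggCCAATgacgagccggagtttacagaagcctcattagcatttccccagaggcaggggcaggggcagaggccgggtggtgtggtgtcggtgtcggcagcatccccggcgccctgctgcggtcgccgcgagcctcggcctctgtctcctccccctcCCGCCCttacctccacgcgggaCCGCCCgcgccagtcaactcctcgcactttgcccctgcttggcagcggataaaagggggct
FADS1: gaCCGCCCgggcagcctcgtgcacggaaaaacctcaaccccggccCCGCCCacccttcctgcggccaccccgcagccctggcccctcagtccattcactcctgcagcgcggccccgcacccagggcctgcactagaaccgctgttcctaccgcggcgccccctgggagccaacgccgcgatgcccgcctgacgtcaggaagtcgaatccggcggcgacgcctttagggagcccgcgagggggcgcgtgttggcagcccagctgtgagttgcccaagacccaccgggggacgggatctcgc
LPIN1: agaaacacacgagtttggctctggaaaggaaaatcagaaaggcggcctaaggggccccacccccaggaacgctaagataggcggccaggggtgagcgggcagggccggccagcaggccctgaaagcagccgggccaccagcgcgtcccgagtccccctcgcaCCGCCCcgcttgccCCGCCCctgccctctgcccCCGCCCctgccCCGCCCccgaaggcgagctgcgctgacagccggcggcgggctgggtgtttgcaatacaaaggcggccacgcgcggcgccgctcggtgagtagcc

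Among the 9 of 10 genes with a RefSeq window (all but FASN), the GC box was found in 8 and the NF-Y box in 6, in any of their 16 windows. Counted by window, 12 of the 16 held the GC box and 8 the NF-Y box. Windows of 1 gene can overlap, as the 2 of ACLY do. Over all 35116 windows of the table, 45.0% held the GC box and 34.6% the NF-Y box. The E-box CACGTG was found for ELOVL5 alone, against 7.26% of all windows. The sterol regulatory element, searched as TCACNCCAC, matched in 0 of the 9, against 1.13% of all windows. With so rare a match and 16 windows, 0 says little about whether these genes hold such an element. Motifs were searched on both strands, and none of the 4 patterns is contained in another. Such matches describe letters in these windows, and a gene with several windows has more chances to hold a match than a single window has.

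Of the acetyl-CoA enzymes, ACSS2 passed in both contrasts and ACLY only at 20 µM against 10 µM. Whether such paired genes differ from each other in response was not tested, here or in what follows. ACSS2 (chromosome 20, 34872146 to 34927962, plus strand, hg38 with GENCODE release 29, as for all positions of genes here) had 56.7, 37.3, 40.1 and 51.1 CPM in controls 1 to 4, 202, 172 and 148 CPM in 10 µM replicates 2 to 4, and 56.1 CPM at 20 µM. Every 10 µM library was far above the controls, and the 20 µM library sat among them. ACSS2 rose by 1.79 ± 0.16 on the log2 scale at 10 µM against control (SE, edgeR adjusted p = 0.00049), the largest change of the 10 genes in that contrast. In the 20 µM library it fell by 1.64 ± 0.27 against 10 µM (SE, edgeR adjusted p = 0.00294). ACLY (chromosome 17, 41866908 to 41930542, minus strand) had 346, 403, 414 and 355 CPM in the controls, 636, 584 and 447 CPM at 10 µM, and 178 CPM at 20 µM. In CPM, which carries no scaling factor, its 10 µM libraries did not overlap the controls. The log2 fold change of 0.42 ± 0.16, from a fit with such factors, did not pass (SE, edgeR adjusted p = 0.0965). It did pass without 10 µM replicate 4, at 0.58, with a term for letters or digits in the library names (0.34, edgeR adjusted p = 0.012) and in the digit-named libraries alone (0.42, edgeR adjusted p = 0.0268). Against 10 µM, ACLY fell by 1.65 ± 0.27 (SE, edgeR adjusted p = 0.00294) and stood at 47.0% of the control mean. The ratio of ACSS2 to ACLY was 0.0925 to 0.164 in the controls, 0.295 to 0.332 at 10 µM and 0.314 at 20 µM.

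Of the enzymes that build the chain, FASN rose at 10 µM against control, and both FASN and ACACA fell at 20 µM against 10 µM. ACACA, the rate-limiting carboxylase (chromosome 17, 37084988 to 37406818, minus strand), had 211, 237, 234 and 207 CPM in the controls, 309.7, 302 and 229 CPM at 10 µM, and 89.5 CPM at 20 µM. Replicate 4 at 10 µM lay within the controls, and the log2 fold change of 0.21 ± 0.15 did not pass (SE, edgeR adjusted p = 0.365). FASN (chromosome 17, 82078333 to 82098332, minus strand) had 1186, 1248, 1145 and 1028 CPM in the controls, 2531, 1832 and 1618 CPM at 10 µM, and 434 CPM at 20 µM. All 3 libraries at 10 µM were above all 4 controls, with replicate 2 the highest. FASN rose by 0.67 ± 0.16 at 10 µM (SE, edgeR adjusted p = 0.0235). That call is the least firm of the 6: it was lost without 10 µM replicate 2 (0.43, edgeR adjusted p = 0.0558), without 10 µM replicate 3 (0.71, edgeR adjusted p = 0.0652) and without control 4 (0.60, edgeR adjusted p = 0.0595). At 20 µM against 10 µM, ACACA fell by 1.65 ± 0.25 and FASN fell by 2.21 ± 0.29 on the log2 scale (SE, edgeR adjusted p = 0.00207 for ACACA and 0.0012 for FASN). The 20 µM library then held 40.3% of the control mean of ACACA and 37.7% of that of FASN, the lowest shares of the 10 genes.

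Of the elongases, ELOVL6 passed in both contrasts and ELOVL5 in that of 20 µM with 10 µM. ELOVL6, which lengthens saturated and monounsaturated chains (chromosome 4, 110045846 to 110199199, minus strand), had 72.6, 87.9, 79.6 and 77.6 CPM in the controls, 173, 169 and 156 CPM at 10 µM, and 36.4 CPM at 20 µM. The 10 µM libraries were closely grouped, at 166 ± 8.78 CPM (SD, n = 3), against 79.4 ± 6.40 CPM in the controls (SD, n = 4). ELOVL6 rose by 0.93 ± 0.11 at 10 µM and fell by 2.19 ± 0.20 at 20 µM against 10 µM (log2, SE, edgeR adjusted p = 0.00183 and 0.000315). ELOVL5, which lengthens polyunsaturated chains (chromosome 6, 53267398 to 53349179, minus strand), had 264, 303, 310.0 and 299.7 CPM in the controls, 348, 405 and 399 CPM at 10 µM, and 189 CPM at 20 µM. In CPM without scaling factors its 10 µM libraries were above the controls. The log2 fold change of 0.25 ± 0.11, from a fit with such factors, did not pass (SE, edgeR adjusted p = 0.158). ELOVL5 fell by 1.03 ± 0.18 at 20 µM against 10 µM (log2, SE, edgeR adjusted p = 0.0045). The ratio of ELOVL6 to ELOVL5 was 0.257 to 0.290 in the controls, 0.391 to 0.496 at 10 µM and 0.193 at 20 µM, so the order of the doses in this ratio is that of ELOVL6 itself.

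Of the desaturases, SCD and FADS1 moved and FADS2 did not pass in either contrast. SCD, which makes monounsaturated chains (chromosome 10, 100347124 to 100364834, plus strand), had 464, 704, 648 and 551 CPM in the controls, 1730.4, 1644 and 1736 CPM at 10 µM, and 403 CPM at 20 µM. The 10 µM libraries agree closely, and the 20 µM library was below the lowest control. SCD rose by 1.39 ± 0.16 at 10 µM and fell by 2.08 ± 0.28 at 20 µM against 10 µM (log2, SE, edgeR adjusted p = 0.00148 and 0.00129). FADS1, the last desaturase on the way to arachidonate (chromosome 11, 61799625 to 61829318, minus strand), had 426, 569.8, 488 and 440.4 CPM in the controls, 1365, 1214 and 1072 CPM at 10 µM, and 253 CPM at 20 µM. FADS1 rose by 1.21 ± 0.15 at 10 µM and fell by 2.27 ± 0.26 at 20 µM against 10 µM (log2, SE, edgeR adjusted p = 0.00193 and 0.000739). The second of these is the largest fall of the 10 genes.

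FADS2, the desaturase that acts before FADS1 on the polyunsaturated chains and whose annotated span holds the whole of FADS1 on the opposite strand (chromosome 11, 61792980 to 61867354, plus strand), was the lowest of the 10 per kilobase of exon. It had 20.2, 24.4, 29.4 and 18.4 CPM in the controls, 30.9, 24.1 and 25.9 CPM at 10 µM, and 13.6 CPM at 20 µM. The 10 µM libraries overlapped the controls, and the fold change on the log2 scale was 0.09 ± 0.20 (SE, edgeR adjusted p = 0.811). Against 10 µM the 20 µM library lay below all 3 libraries, but its value of -0.99 ± 0.33 on the log2 scale just missed the threshold (SE, edgeR adjusted p = 0.0525). It passed in 7 of 16 alternatives. FADS1 and FADS2 share 490 exonic bases on opposite strands in GENCODE release 29, which is 4.79% of the FADS1 exons and 4.44% of the FADS2 exons. Whether the counting used strand is not given in the sources used here. If it did not, FADS1 reads on these bases could weigh on the values of FADS2, the far lower gene, and on their ratio. That was not tested. The ratio of FADS1 to FADS2 was 16.6 to 23.9 in the controls, 41.4 to 50.4 at 10 µM and 18.6 at 20 µM.

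LPIN1 (chromosome 2, 11677595 to 11827409, plus strand) had 51.9, 52.9, 47.3 and 53.8 CPM in the controls, 167, 177 and 147 CPM at 10 µM, and 91.2 CPM at 20 µM. It was the only one of the 10 whose 20 µM library lay above every control, at 177% of their mean. LPIN1 rose by 1.55 ± 0.11 at 10 µM (log2, SE, edgeR adjusted p = 0.000205) and fell by 0.85 ± 0.17 at 20 µM against 10 µM (log2, SE, edgeR adjusted p = 0.00666). Its paralog LPIN2, which catalyses the same reaction, had 51.6, 49.7, 45.7 and 51.0 CPM in the controls, 76.8, 77.1 and 81.5 CPM at 10 µM, and 178 CPM at 20 µM. LPIN2 thus rose at 10 µM by 0.54 ± 0.08 and rose again at 20 µM against 10 µM by 1.18 ± 0.11 (log2, SE, edgeR adjusted p = 0.00353 and 0.000377), where LPIN1 fell. The ratio of LPIN1 to LPIN2 was 1.01 to 1.06 in the controls, 1.80 to 2.30 at 10 µM and 0.512 at 20 µM.

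**Figure D2:**
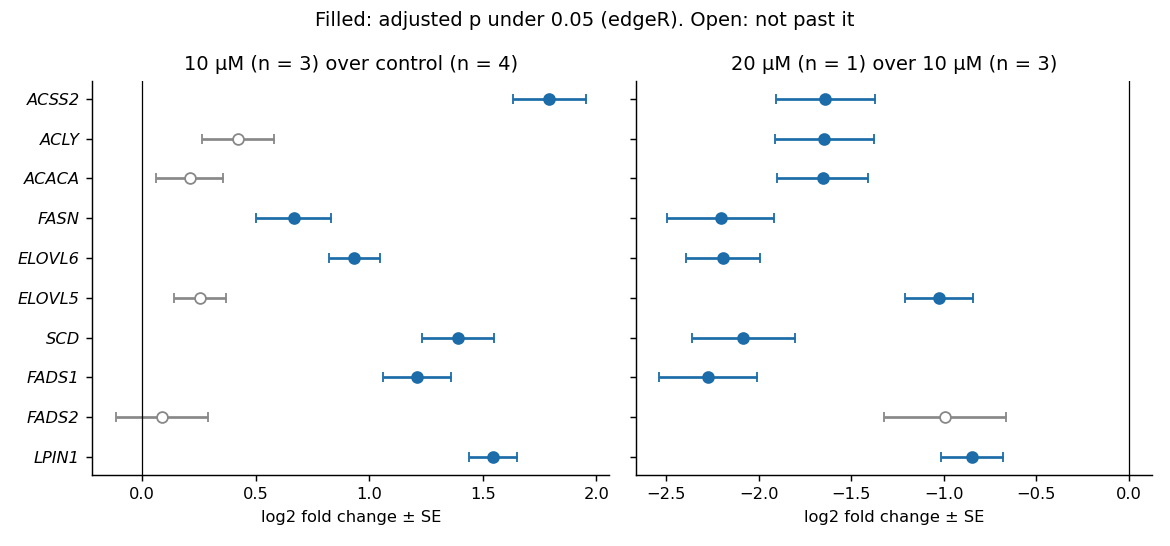
Points are log2 fold changes and bars their SE, for 10 µM over control (left) and 20 µM over 10 µM (right), with filled points past an adjusted p of 0.05. The left panel runs from 0.09 for FADS2 to 1.79 for ACSS2, and all 10 points of the right panel lie below 0, with FADS2 open.

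Set against the controls, the 20 µM library was below all 4 for 8 of the 10 genes, where 30.6% of all genes were. It was above all 4 for 1 (LPIN1), where 46.5% of all genes were, and within them for ACSS2. Both patterns together, every 10 µM library above and the 20 µM library below every control, held for 6 of the 10 (ACLY, FASN, SCD, FADS1, ELOVL5 and ELOVL6) and for 2.75% of all genes. These counts are descriptions, since 1 library at 20 µM gives no spread, and the comparisons of 10 µM and of 20 µM with control share the controls. They were taken in CPM without TMM scaling factors and were not repeated with them. The 20 µM library held 68.0% of the control mean of SCD, 64.2% of ELOVL5, 58.8% of FADS2, 52.5% of FADS1 and 45.8% of ELOVL6. ACSS2 stood at 121% of its control mean.

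**Figure D3:**
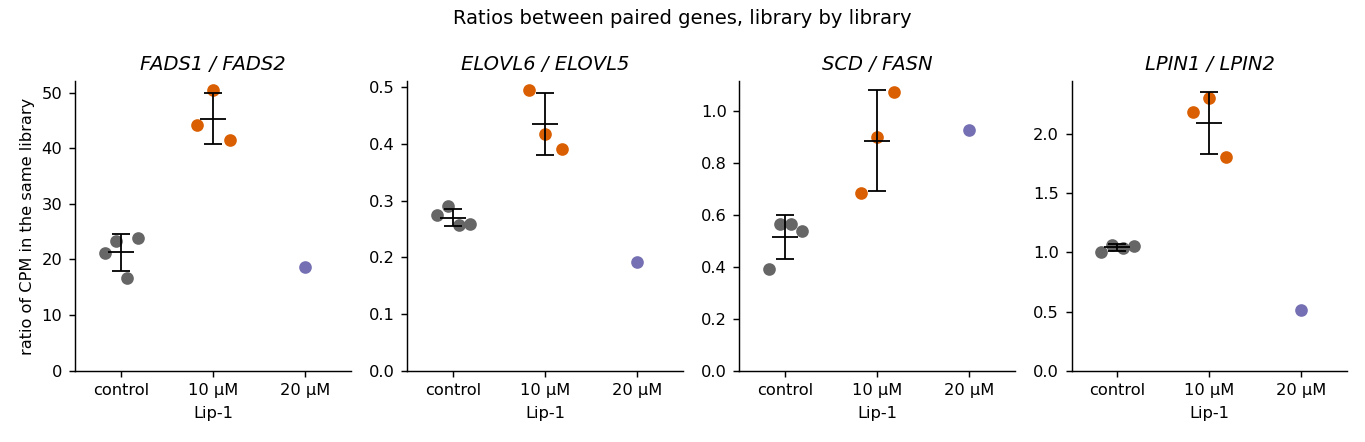
Each point is the ratio of the CPM of 2 genes within 1 library, by Lip-1 dose, with mean and SD bars for the controls and for 10 µM. FADS1 over FADS2, ELOVL6 over ELOVL5 and LPIN1 over LPIN2 were higher in every 10 µM library than in every control, with the 20 µM library back within or below the controls, while SCD over FASN at 20 µM, 0.928, stayed above them.

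The ratio of SCD to FASN, which sets desaturation beside synthesis, was 0.391 to 0.565 in the controls, 0.684 to 1.07 at 10 µM and 0.928 at 20 µM. In this ratio, as in that of ACSS2 to ACLY, the 20 µM library lay within the range of the 10 µM libraries and above every control. Both are ratios of CPM and so carry no scaling factor between libraries.

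Between genes, levels were compared as CPM per kilobase of merged exons. In the controls FASN averaged 123 ± 9.89 and SCD 110.3 ± 19.8 CPM per kilobase (SD, n = 4), with overlapping ranges. ELOVL5 (77.2) and ACLY (72.8) followed, also overlapping, and then FADS1 (47.0), ACACA (17.1), ELOVL6 (10.9), ACSS2 (8.60), LPIN1 (4.34) and FADS2 (2.09), of which only ELOVL6 and ACSS2 overlapped as neighbours. At 10 µM SCD led with 318 ± 9.62 CPM per kilobase, ahead of FASN with 213 ± 51.0 (SD, n = 3). In the 20 µM library SCD, at 75.1, still led, followed by ELOVL5 at 49.5 and FASN at 46.4 CPM per kilobase. FADS2 was last at every dose.

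Of 11 regulators of SREBP, LXR and ChREBP, 4 rose at 10 µM against control and 0 fell, with a median log2 fold change of 0.36. Of all genes, 9.34% were called higher and 9.79% lower in this contrast. INSIG1, which retains SREBP in the endoplasmic reticulum and is itself an SREBP target, had 89.8, 129, 115 and 91.3 CPM in the controls, 651, 687 and 661 CPM at 10 µM, and 98.6 CPM at 20 µM. It rose by 2.51 ± 0.16 at 10 µM and fell by 2.76 ± 0.29 at 20 µM against 10 µM, where it lay back among the controls (log2, SE, edgeR adjusted p = 0.000171 and 0.000519). SREBF2, which encodes the SREBP tied mainly to sterol genes, had 137, 131, 133 and 137 CPM in the controls, 269, 250.2 and 264 CPM at 10 µM, and 275 CPM at 20 µM. It rose by 0.83 ± 0.08 at 10 µM (log2, SE, edgeR adjusted p = 0.000863), and at 20 µM against 10 µM its log2 fold change was 0.08 ± 0.13 (SE, edgeR adjusted p = 0.706). SREBF1, which encodes the SREBP tied mainly to fatty acid genes, had 234, 207, 191 and 185 CPM in the controls, 304, 234 and 268 CPM at 10 µM, and 97.1 CPM at 20 µM. At 10 µM its log2 fold change of 0.27 ± 0.12 did not pass (SE, edgeR adjusted p = 0.148), and at 20 µM it fell by 1.47 ± 0.20 against 10 µM (log2, SE, edgeR adjusted p = 0.00135). The 20 µM library was thus below every control for SREBF1 and above every control for SREBF2.

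INSIG2, a second SREBP retention protein, rose by 0.60 ± 0.16 and MLXIP, a partner of MLX that senses glucose metabolites, by 0.36 ± 0.10 at 10 µM (log2, SE, edgeR adjusted p = 0.0322 and 0.041). Both calls sit close to the threshold. INSIG2 lost its call on leaving out any of controls 1, 2 and 4 or 10 µM replicates 3 and 4, and MLXIP on leaving out any of controls 2 to 4 or 10 µM replicates 2 to 4. SCAP did not pass in either contrast, with log2 fold changes of -0.22 ± 0.13 at 10 µM and -0.21 ± 0.20 at 20 µM against 10 µM (SE, edgeR adjusted p = 0.285 and 0.473). NR1H3, which encodes LXR alpha, had 5.75, 3.50, 4.26 and 4.55 CPM in the controls, 7.81, 7.94 and 6.70 CPM at 10 µM, and 8.08 CPM at 20 µM. Its libraries did not overlap at 10 µM, but the log2 fold change of 0.61 ± 0.21 did not pass (SE, edgeR adjusted p = 0.0773). It passed with the term for library names (0.62, edgeR adjusted p = 0.0407) and in the digit-named libraries alone (0.86, edgeR adjusted p = 0.0327). Of the regulators, at 20 µM against 10 µM, 3 fell (INSIG1, SREBF1 and MLXIP, the last by 0.66 ± 0.16) and 1 rose. That was MBTPS1, the protease that makes the initial cut in SREBP, at 0.41 ± 0.13 (log2, SE, edgeR adjusted p = 0.0378), a call lost on leaving out any of controls 2 to 4 or of the 10 µM libraries. The median over the 11 was 0.08, and 14.6% of all genes were called lower and 11.7% higher.

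Of 20 further genes of synthesis, elongation and desaturation, 18 passed the filter on low counts. At 10 µM against control 2 were called higher and 0 lower, where 9.34% and 9.79% of all genes were. The median log2 fold change was 0.24. ELOVL7, an elongase of saturated chains, had 5.22, 3.83, 2.87 and 5.96 CPM in the controls, 11.5, 14.3 and 17.1 CPM at 10 µM, and 34.9 CPM at 20 µM. It went opposite to ELOVL6 at the higher dose: it rose by 1.56 ± 0.24 at 10 µM, and again by 1.29 ± 0.34 at 20 µM against 10 µM (log2, SE, edgeR adjusted p = 0.004 and 0.022). The second call was lost without 10 µM replicate 2 (edgeR adjusted p = 0.066) or replicate 3 (edgeR adjusted p = 0.0595). SLC25A1, which exports citrate from mitochondria for ACLY, had 358, 303, 324 and 319 CPM in the controls, 597, 442 and 443 CPM at 10 µM, and 201 CPM at 20 µM. It rose by 0.48 ± 0.13 and then fell by 1.30 ± 0.22 at 20 µM against 10 µM (log2, SE, edgeR adjusted p = 0.0353 and 0.0032), though the rise lost its call on leaving out any of controls 2 to 4 or 10 µM replicates 2 and 3. Of the 18, at 20 µM against 10 µM, 5 fell and 2 rose, where 14.6% and 11.7% of all genes did, with a median of -0.11. HSD17B12 and HACD3, enzymes of the elongation cycle, fell by 0.92 ± 0.19 and 0.94 ± 0.22, and CYB5B, an outer mitochondrial membrane cytochrome, by 1.02 ± 0.18 (log2, SE, edgeR adjusted p = 0.00826, 0.0147 and 0.00361). The fifth that fell, TECR (by 0.61 ± 0.17), and the other that rose, FADS3 (by 0.80 ± 0.21), were named after their values were seen (log2, SE, edgeR adjusted p = 0.0269 and 0.0207).

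**Figure D4:**
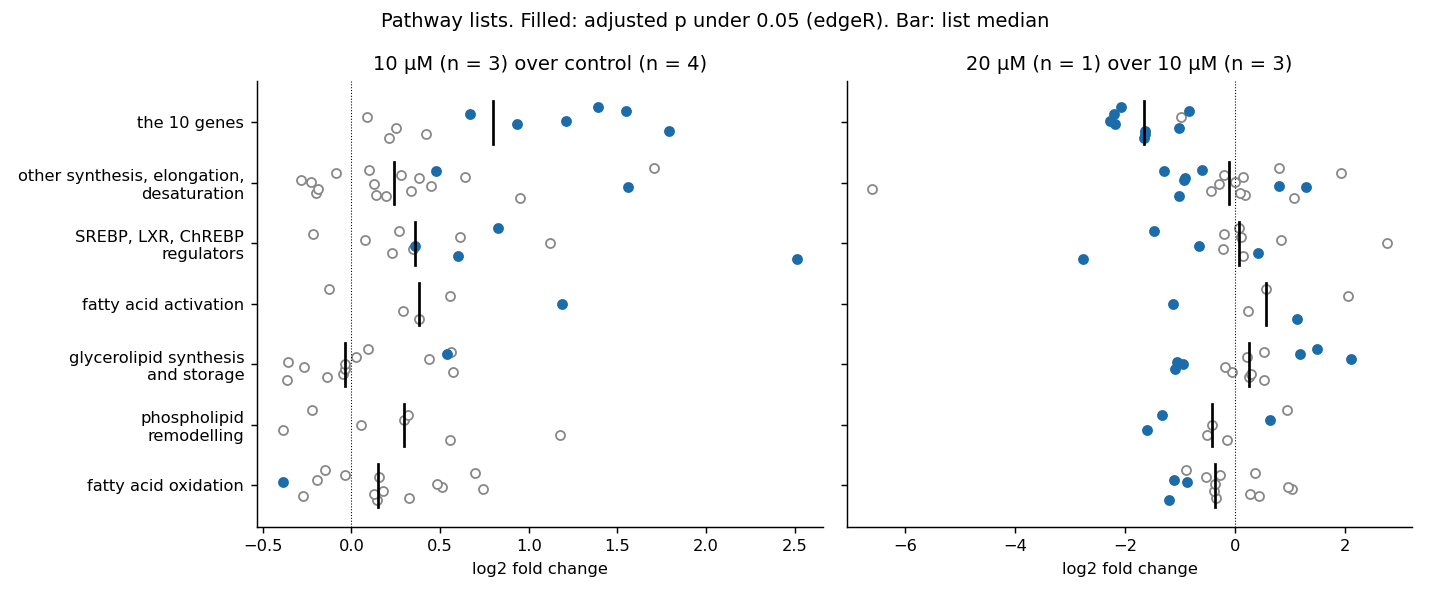
Each point is the log2 fold change of 1 gene, by pathway list, for 10 µM over control (left) and 20 µM over 10 µM (right); filled points passed an adjusted p of 0.05 and the bar is the list's median. The median of the 10 genes is 0.80 on the left and -1.65 on the right, while the medians of the 6 other lists run from -0.04 to 0.38 on the left and from -0.42 to 0.57 on the right.

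Acyl-CoA synthetases hand fatty acids on to membranes and stores. Of 5 acyl-CoA synthetases 0 fell and 1 rose at 10 µM against control, where 9.34% of all genes rose. This was ACSL4, which prefers arachidonate and is known to be needed for ferroptosis, with 43.3, 54.1, 51.2 and 43.4 CPM in the controls, 113, 144 and 101 CPM at 10 µM, and 54.7 CPM at 20 µM. It rose by 1.19 ± 0.17 and fell by 1.13 ± 0.27 at 20 µM against 10 µM (log2, SE, edgeR adjusted p = 0.00289 and 0.0145). ACSL1 rose at 20 µM against 10 µM, by 1.13 ± 0.26 (log2, SE, edgeR adjusted p = 0.0126). Its 20 µM library had 94.9 CPM, against 33.1 to 56.2 CPM at 10 µM. At 20 µM against 10 µM 1 of the 5 rose and 1 fell, where 11.7% and 14.6% of all genes did. The median over the 5 was 0.38 at 10 µM and 0.57 at 20 µM against 10 µM.

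Of 13 genes of glycerolipid synthesis and storage, 1 (LPIN2) rose at 10 µM and 0 fell, with a median of -0.04. Of all genes, 9.34% rose and 9.79% fell there. At 20 µM against 10 µM, 3 rose and 3 fell, where 11.7% and 14.6% of all genes did, with a median of 0.24. GPAT3, an acyltransferase that starts glycerolipid synthesis, had 118 CPM at 20 µM, against 17.3, 23.8 and 41.5 CPM at 10 µM, and rose by 2.11 ± 0.37 (log2, SE, edgeR adjusted p = 0.00393). PLIN2, a coat protein of lipid droplets, had 148 CPM at 20 µM, against 53.1, 55.0 and 48.9 CPM at 10 µM, and rose by 1.49 ± 0.19 (log2, SE, edgeR adjusted p = 0.00118). AGPAT5, a lysophosphatidate acyltransferase, had 77.4 CPM at 20 µM, against 147, 170.5 and 176 CPM at 10 µM, and fell by 1.09 ± 0.17 (log2, SE, edgeR adjusted p = 0.0026). GPAM, a mitochondrial acyltransferase of the same step as GPAT3, fell by 1.06 ± 0.22, and DGAT2, which forms triglycerides, fell by 0.96 ± 0.27 (log2, SE, edgeR adjusted p = 0.00868 and 0.0276). These last 2 genes were named after their values were seen.

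Of 7 phospholipid remodelling genes 0 passed at 10 µM, where 9.34% of all genes rose and 9.79% fell, with a median of 0.30. At 20 µM against 10 µM, 2 fell and 1 rose, where 14.6% and 11.7% of all genes did, with a median of -0.42. LPCAT3, which puts polyunsaturated chains into phospholipids, had 9.04 CPM at 20 µM, against 30.4, 26.3 and 25.6 CPM at 10 µM, and fell by 1.60 ± 0.27 (log2, SE, edgeR adjusted p = 0.00318). MBOAT2, which inserts monounsaturated chains, fell by 1.32 ± 0.36, and MBOAT1 rose by 0.63 ± 0.17 (log2, SE, edgeR adjusted p = 0.0262 and 0.0266). Both of these calls were lost without 10 µM replicate 2 or replicate 3. Of 14 oxidation genes 1 fell at 10 µM, where 9.79% of all genes did, with a median of 0.15 over the 14. This was ECHS1, the enoyl-CoA hydratase of the mitochondrial matrix, at -0.39 ± 0.10 (log2, SE, edgeR adjusted p = 0.0242), which lost its call without control 3, 10 µM replicate 3 or 10 µM replicate 4. At 20 µM against 10 µM 3 of the 14 fell and 0 rose, where 14.6% and 11.7% of all genes did, with a median of -0.36. They were ACADM (1.20 ± 0.17), HADH (1.11 ± 0.18) and ECHS1 (0.87 ± 0.15), all steps of beta oxidation, with the size of each fall on the log2 scale and its SE.

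Total counts were 71151415 to 141307169 per library, and TMM scaling factors 0.90 to 1.08. All 8 markers of erythroid cells and of K562 were present in the table, and none was under 1 CPM in all libraries. Their summed level was 4091 to 7392 CPM in the controls, 3314 to 4411 CPM at 10 µM and 2718 CPM at 20 µM. At 10 µM against control 4 of the 8 fell (HBZ, HBG1, HBG2 and KLF1), where 9.79% of all genes did. In the contrast of 20 µM with 10 µM 3 fell (GATA1, TAL1 and KLF1), where 14.6% of all genes did, and 0 rose. KLF1 alone fell in both. Their part in the results on fatty acid genes was not tested. Of 5 liver and fat markers, all were under 1 CPM in all libraries, with sums of at most 0.221 CPM, and APOA2 and PLIN1 were at 0. Summed levels were 17.8 to 125.8 CPM in the controls, 19.6 to 107.8 CPM at 10 µM and 22.6 CPM at 20 µM for 5 monocyte and granulocyte markers, with MPO and ELANE under 1 CPM in all libraries and ELANE at 0. Of these CD14, at 20 µM against 10 µM, rose by 3.54 ± 1.01, and CD3D of the lymphocyte markers fell by 1.79 ± 0.32 (log2, SE, edgeR adjusted p = 0.0301 and 0.00464); no other marker outside the erythroid list passed in either contrast, and the part of these in the results was not tested. For 5 lymphocyte markers the summed levels were 12.9 to 17.1 CPM in the controls, 13.6 to 23.1 CPM at 10 µM and 6.40 CPM at 20 µM, with CD3E, MS4A1 and CD79A under 1 CPM in all libraries. For 5 markers of epithelium and fibroblasts they were 32.3 to 55.3 CPM in the controls, 34.5 to 43.3 CPM at 10 µM and 28.1 CPM at 20 µM, with KRT5 and DCN under 1 CPM in all libraries. In bulk RNA, fewer cells of a type and less RNA per cell cannot be told apart.

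The submitters' library names use letters for controls 1 and 4, 10 µM replicate 4 and the 20 µM library, and digits for the other 4 libraries. The labels attach no batch to these names. Within the digit-named libraries the log2 fold change at 10 µM against control was 2.12 for ACSS2, 1.63 for LPIN1, 1.17 for SCD, 1.13 for FADS1, 0.87 for ELOVL6 and 0.71 for FASN, all called. Within the letter-named libraries, with 1 library at 10 µM, it was 1.28 for ACSS2, 1.29 for LPIN1, 1.60 for SCD, 1.13 for FADS1 and 0.88 for ELOVL6, all called, and 0.37 for FASN, which was not (edgeR adjusted p = 0.141). At 20 µM against 10 µM all 10 genes, FADS2 included, had negative log2 fold changes within the letter-named libraries, with a median of -1.32. That contrast sets 1 library against 1 library, and the spread in its fit comes from controls 1 and 4 alone. The rise of LPIN2 at 10 µM against control lost its call in the letter-named libraries (0.49).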

How the data were processed

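Total RNA from K562 cells was depleted of ribosomal RNA and copied with random primers, per the labels' protocols. The authors deposited 1 table of counts, whole numbers for each gene in each of the 8 libraries. The submitters' processing notes name bcl2fastq 2.0, HISAT2, StringTie, DESeq2, limma and hg38, with no role or order; the strand setting is not given in the sources used here. Low values are not spaced like single reads (401 entries at 1 count, 2958 at 4), so a count may not be 1 read. A further 9 lines without a gene name held 0% of the counts and were left out.

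CPM here is the count divided by the library's total, multiplied by 1e+06, with no TMM factor. Genes were tested in edgeR 4.0.16 under R 4.3.3 (filterByExpr, TMM, glmQLFit and glmQLFTest, two-sided, Benjamini-Hochberg over 14857 genes at 0.05) on a fit with 3 dose levels and no block. The fit was tested on simulated data. Alternatives used other scalings and filters, DESeq2 1.42.0, limma 3.58.1 (voom), a replicate block, a term for the naming of libraries, both doses as 1 group and each library left out. GENCODE release 29 gave positions and merged exons, and RefSeq the promoters.

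All 10 genes are named, and from each of 6 further lists at most the 4 genes with the smallest p per contrast among those called, plus SREBF1, SREBF2, SCAP, INSIG1 and NR1H3. Genes and lists were chosen with earlier results of these data known.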

Additional observations from a re-analysis of the deposited data

How the results depend on the processing

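At 10 µM against control, 2842 genes were called. The count was 4657 with a replicate block, 4665 with a term for letters or digits in the library names, 1002 in the letter-named libraries alone and 1855 with both doses as 1 group. It ran from 1364 to 3021 over the fits that leave out 1 library, with 1364 without 10 µM replicate 3, 1463 without 10 µM replicate 4, 1640 without control 3 and 1880 without control 2. Fewer samples enter these fits. Of the 10 genes, 2 were called with both doses as 1 group in place of 6. The counts at 20 µM against 10 µM, 3903 over all genes and 9 of the 10, stayed within 1.5 times of these under every alternative run.

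Same-numbered 10 µM and control libraries deviated from their group means with correlations of 0.07, 0.21 and 0.24 across genes, not all above 0.1, so the numbers were not taken to pair the samples. Each 10 µM library correlated best with the control of its own number, but control 2 correlated best with 10 µM replicate 3 (0.16). The submitters' library names share a leading digit between control and 10 µM library for replicates 2 and 3. For replicate 4 the leading letters differ. The 20 µM library, replicate 1, shares its leading letter with control 1 and also with control 4. No label states a pairing. With the replicate block ACLY also passed at 10 µM (0.35, edgeR adjusted p = 0.0196), giving 7 of the 10, and 9 of the 10 passed at 20 µM against 10 µM. Over all 14857 genes the block called 31.3% at 10 µM against control, 2406 higher and 2251 lower. At 20 µM against 10 µM it called 19.1%, 1211 higher and 1630 lower. The list counts below are to be read beside these shares. At 10 µM against control the block called 6 higher and 1 lower of the 18 other synthesis genes (2 and 0 without it), 7 higher and 0 lower of the 11 regulators (4 and 0), 2 higher of the 5 synthetases (1), 4 higher and 1 lower of the 13 glycerolipid genes (1 and 0), 2 higher and 1 lower of the 7 remodelling genes (0 and 0), 3 higher and 1 lower of the 14 oxidation genes (0 and 1), and 6 lower of the 8 erythroid markers (4). Of the named genes it added SREBF1 (0.31, edgeR adjusted p = 0.0427), NR1H3 (0.72, edgeR adjusted p = 0.0217), ACSL1, GPAT3, HSD17B12 and MBOAT1 as higher and HACD3 and LPCAT3 as lower. The term for library names added the same genes at 10 µM except SREBF1, and MBTPS1. At 20 µM against 10 µM the block called 1 higher and 3 lower of the 18 other synthesis genes (2 and 5), 0 higher and 3 lower of the regulators (1 and 3) and 0 higher and 2 lower of the remodelling genes (1 and 2). It ended the calls of ELOVL7, FADS3, HACD3, HSD17B12, MBOAT1, MBTPS1 and TAL1, and that of CD14 (2.85, edgeR adjusted p = 0.432). In the same contrast it added ME1 as higher and HBG1, HBG2, LYZ and COL1A2 as lower. At 10 µM against control it added EPCAM as lower.

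Signs that turned were all of log2 fold changes that passed in neither setting. At 10 µM against control, ACACA was -0.043 in the letter-named libraries alone and -0.055 with both doses as 1 group, ACADM -0.069 with both doses as 1 group, PLIN2 -0.023 in the digit-named libraries alone, and AGPAT5 0.019 in the letter-named ones. FADS2 was -0.12 in the digit-named libraries alone and -0.10 with both doses as 1 group. Over the fits that leave out 1 library, FADS2 ran from -0.049 to 0.26 (below 0 without 10 µM replicate 2 or control 4) and AGPAT5 from -0.097 to 0.0086. NR1H3 at 20 µM against 10 µM was -0.30 with the replicate block, and from -0.014 to 0.15 over the fits that leave out 1 library. For these changes the cause was not tested. The 1 library at 20 µM limits every value at that dose.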
